A study of Homo sapiens with 12 samples.

Results

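The Notch receptors and ligands are 10 genes, chosen by gene symbol: the receptors NOTCH1, NOTCH2, NOTCH3 and NOTCH4, the ligands DLL1, DLL3, DLL4, JAG1 and JAG2, and the related surface protein DLK1. All 10 were among the 56508 symbols of the table, and 7 passed the filter on low values (at least 1 TPM in at least 3 libraries). NOTCH3, NOTCH4 and DLK1 did not pass it. The values come from messenger RNA of 2 established lines of human small cell lung cancer, H82 and H211, that were grown with ORY-1001, an inhibitor of the histone demethylase LSD1, at 1 µM or with vehicle (PBS in the sample labels). There were 3 libraries in each of 4 groups: H82 control, H82 ORY-1001, H211 control and H211 ORY-1001. The sample labels give 7 days of treatment and the protocol gives 10 days, and which applied was not settled. Each background is represented by a single line, and the labels do not say whether separate cultures gave the libraries of a group. The p-values therefore reflect no more than the spread among these libraries, which may be technical.

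Notch receptors are single-pass membrane proteins that are switched on by ligands on a neighbouring cell. Ligand binding exposes the receptor to cleavage by ADAM10 and then by γ-secretase, and the freed intracellular part joins RBPJ and a Mastermind protein in the nucleus to activate HES and HEY genes. DLL1, DLL4, JAG1 and JAG2 activate receptors on adjacent cells, whereas DLL3 does not and is known as an inhibitory ligand of neuroendocrine small cell lung cancer. In that cancer Notch activity is known to oppose the neuroendocrine state.

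Of the 10 genes, 7 had an entry among the RefSeq promoter sequences (GRCh38.p14). JAG2 and NOTCH1 are shown because they are the members with an entry whose transcripts passed the test with ORY-1001. DLL1, DLL3 and DLK1 had no entry. Each run is read 5′ to 3′ on the minus strand, takes the longest stretch of the 250 bases before the start that lies outside exons of the GENCODE release 29 annotation, and has CG dinucleotides in capitals.
JAG2 (chr14:105168825-105169026, 202 bases ending 48 bases before the RefSeq start): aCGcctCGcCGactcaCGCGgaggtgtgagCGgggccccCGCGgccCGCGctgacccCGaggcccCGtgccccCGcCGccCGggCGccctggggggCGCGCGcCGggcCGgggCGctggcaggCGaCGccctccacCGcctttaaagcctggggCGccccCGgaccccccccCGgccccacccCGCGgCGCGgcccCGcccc
NOTCH1 (chr9:136546049-136546172, 124 bases ending at the RefSeq start): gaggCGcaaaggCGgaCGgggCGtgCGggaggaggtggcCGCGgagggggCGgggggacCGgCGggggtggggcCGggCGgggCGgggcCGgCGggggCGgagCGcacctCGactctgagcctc
Over the whole 250 bases JAG2 held 38 CG dinucleotides and NOTCH1 held 33, where the median of 35116 promoters was 11. Neither held TGGGAA (the core of the RBPJ motif), CAGCTG or CAGATG (E-boxes of proneural bHLH factors) or TAAATCA (a GFI1-family core) on either strand. The other 5 promoters, of NOTCH2, NOTCH3, NOTCH4, DLL4 and JAG1, did not hold them either. Among all promoters of this length 20.8% held the first, 14% the second, 12.2% the third and 2.59% the fourth motif, and CAGCTG reads the same on both strands.

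The deposited values are TPM rescaled between libraries, with column totals from 967400 to 1112000, so they can be compared between genes per length of transcript. The depth behind each value is unknown. Within a group, r between libraries was 0.988 to 0.991 across genes, which are not independent replicates. NEUROD1 marked H82 (135 to 139 TPM in controls, against 1.4 to 2.1 in H211) and POU2F3 marked H211 (277 to 285, against 1.78 to 2.72 in H82). Transcripts of 10 blood cell genes differed between libraries: their summed level ran from 41.0 to 55.6 in H82 controls, 29.5 to 140.4 in treated H82, 41.9 to 133.3 in H211 controls and 29.9 to 46.1 in treated H211. The tests were also run without H82 ORY-1001 replicate 3, H211 control replicates 1 and 2 and H211 ORY-1001 replicate 3, in a fit that tested 6 of the members and not DLL4. These 4 libraries were chosen from an earlier account of the data for blood transcripts unlike those of other libraries of their group, not for a high sum, and H211 ORY-1001 replicate 3 has the lowest sum of its group. That library, with LYZ at 16.05 and MPO at 8.571, resembled H82 ORY-1001 replicates 1 and 2 (LYZ at 15.98 and 18.69, MPO at 8.707 and 8.547), which were kept, so this fit still holds blood transcripts.

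**Figure D1:**
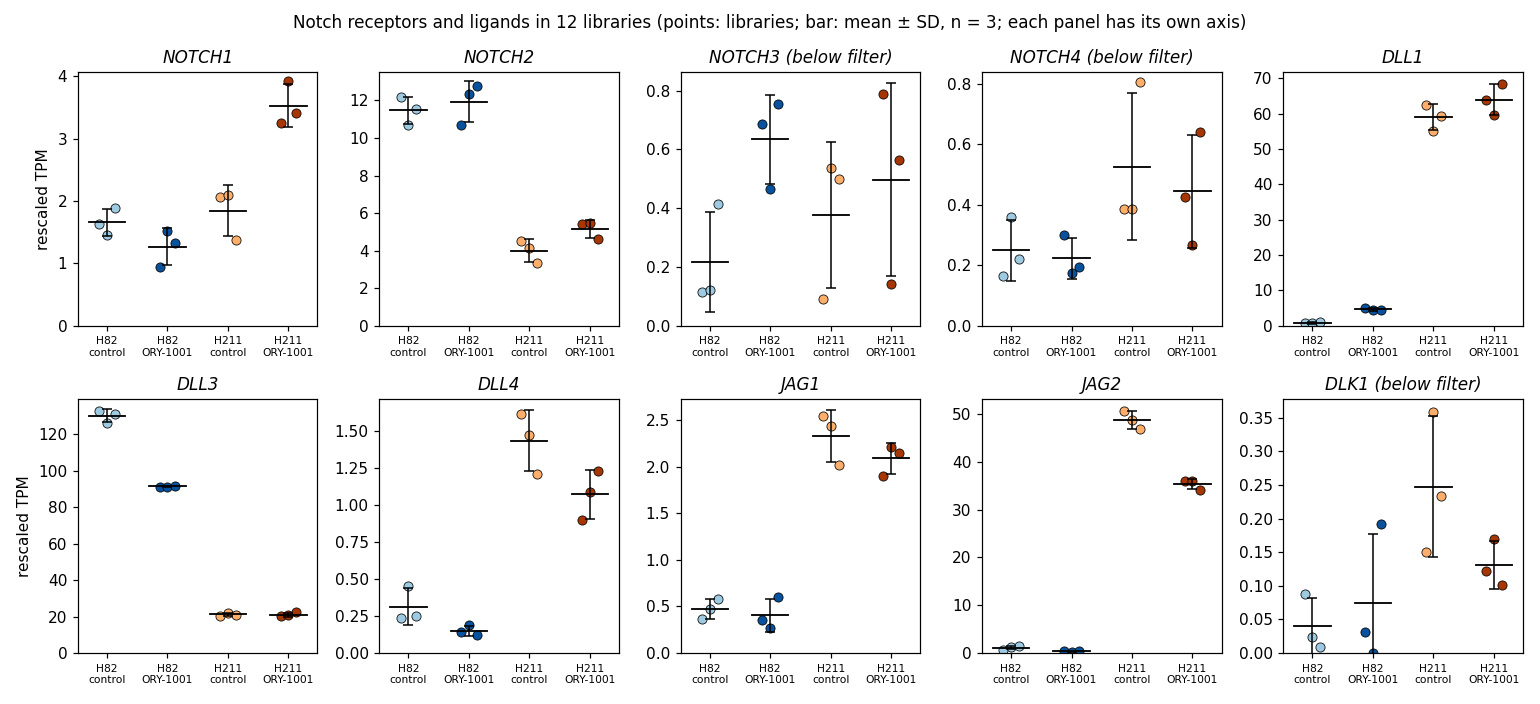
Level of each member in rescaled TPM (vertical axes, each panel with its own scale from 0) in the 3 libraries of H82 control, H82 ORY-1001, H211 control and H211 ORY-1001; points are libraries and bars are mean ± SD. DLL3 is highest in H82 controls (126 to 133), DLL1 and JAG2 are high in H211 only, and NOTCH3, NOTCH4 and DLK1 stay under 1 in every library.

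In the deposited values the control cultures of both lines carried ligand transcripts at almost the same summed level, made up of different ligands. The scaling between libraries bears on that likeness. With column totals made equal, the median log2 difference of all genes between the controls (H211 minus H82) moved from -0.023 to 0.093. DLL1, DLL3, DLL4, JAG1 and JAG2 together came to 132.6 ± 3.25 TPM in H82 controls and 132.7 ± 4.28 in H211 controls (mean ± SD, n = 3). In H82, DLL3 made up 97.95% ± 0.529 of that sum. In H211, DLL1 made up 44.4% ± 1.73, JAG2 36.7% ± 0.822 and DLL3 16.04% ± 1.07. In bulk RNA a smaller number of expressing cells and less transcript per cell cannot be told apart. Receptor transcripts were scarcer than ligand transcripts in both lines, with a sum over the 4 receptors of 13.6 ± 0.838 in H82 and 6.75 ± 0.652 in H211.

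**Figure D2:**
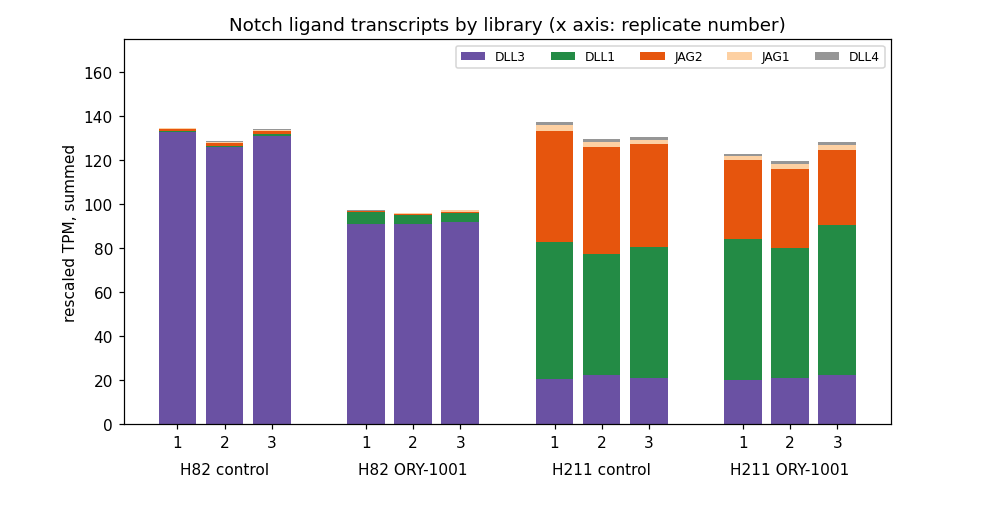
Stacked bars of rescaled TPM of DLL3, DLL1, JAG2, JAG1 and DLL4 in each of the 12 libraries, grouped by line and treatment, with the replicate number on the horizontal axis. The H82 control bars are almost all DLL3, the treated H82 bars are lower with DLL1 added on top, and the H211 bars are mostly DLL1 and JAG2, with less JAG2 under ORY-1001.

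DLL1, a Delta-like activating ligand on chromosome 6 (170282206 to 170306565, minus strand), stood at 62.4, 55.1 and 59.4 TPM in H211 controls and at 0.663, 0.706 and 1.03 in H82 controls. Every H211 library was above every H82 library, and the means were 73.8-fold apart (log2 difference 5.06, SE 0.092, adjusted p = 8.918e-13). JAG2, a Jagged-family activating ligand on chromosome 14 (105140981 to 105168824, minus strand), stood at 50.5, 48.7 and 46.8 in H211 controls and 0.687, 1.3 and 1.41 in H82 controls, 43.1-fold apart (log2 difference 4.56, SE 0.119, adjusted p = 1.3e-11). DLL3, on chromosome 19 (39498895 to 39508481, plus strand), went the other way, at 132.9, 126 and 130.9 in H82 controls and 20.5, 22.2 and 21.1 in H211 controls, 6.12-fold higher in H82 (adjusted p = 7.499e-13). Of 3194 genes at 40 TPM or more in H211 controls, 71 stood at a lower share of that level in H82 controls than DLL1 (1.35%) and 101 at a lower share than JAG2 (2.32%), and the lowest share above 0 was 0.0906%.

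NOTCH2, on chromosome 1 (119911553 to 120069626, minus strand), was the most abundant receptor transcript of both lines, at 12.2, 10.7 and 11.6 in H82 controls and 4.52, 4.15 and 3.32 in H211 controls, 2.87-fold higher in H82 with no overlap (adjusted p = 2.249e-07). NOTCH1, on chromosome 9 (136494433 to 136545786, minus strand), overlapped between the lines, at 1.63, 1.46 and 1.89 in H82 controls and 2.07, 2.11 and 1.37 in H211 controls (log2 difference H211 minus H82 0.09, 95% interval -0.21 to 0.39, adjusted p = 0.5523). JAG1, the other Jagged ligand, was 4.95-fold higher in H211 (2.54, 2.43 and 2.02 against 0.367, 0.468 and 0.576) and DLL4, a Delta-like ligand best known from endothelium, 4.56-fold higher (1.62, 1.47 and 1.21 against 0.235, 0.455 and 0.252). The adjusted p was 1.44e-06 for JAG1 and 1.121e-05 for DLL4. Summed levels of 6 endothelial markers ran from 0.0706 to 1.38 in H211 controls and from 0.0888 to 0.479 in H82 controls, with 0 of the 6 at 1 or more in all libraries of any group.

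Untreated H82 and H211 differed in 6 of the 7 members tested, where 80.5% of all genes tested differed. Of these, 4 were higher in H211 (39.7% of all genes) and 2 lower (40.8%), and the same 6 had no overlap between the groups (81.7%). DLL4, JAG1 and JAG2 passed the filter only through H211 libraries, so their difference was in part set by the filter. In order of level in H82 controls, DLL3 came first, then NOTCH2, NOTCH1, JAG2, DLL1, JAG1, DLL4, NOTCH4, NOTCH3 and DLK1. NOTCH1 was above JAG2 in every library, while JAG2 overlapped DLL1, and JAG1 overlapped DLL4. In H211 controls DLL1 and JAG2 led without overlapping, followed by DLL3, NOTCH2, JAG1, NOTCH1 and DLL4, with JAG1 overlapping NOTCH1 and NOTCH1 overlapping DLL4.

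With ORY-1001, H82 gained DLL1 transcript and lost DLL3 and JAG2 transcript. The 3 controls held 0.663, 0.706 and 1.03 TPM of DLL1, and the treated libraries 5.17, 4.34 and 4.44. Each treated library was above each control, and the mean went from 0.798 ± 0.199 to 4.65 ± 0.455, 5.82-fold higher (1.65 on the log2 scale, SE 0.092, adjusted p = 2.33e-07). The value depended on the constant added before the logarithm, at 2.42 with a pseudocount of 0.1 and 0.73 with 5, and was 1.68 without the 4 libraries left out for blood transcripts. The treated level of DLL1 in H82 was 7.89% of its level in H211 controls.

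For DLL3 the H82 controls held 132.9, 126 and 130.9 TPM and the treated libraries 91.1, 91.0 and 91.8. All treated libraries were below all controls, and the mean was 1.42-fold lower (-0.50 on the log2 scale, SE 0.045, adjusted p = 6.942e-06). DLL3 remained the most abundant member in treated H82, with 94.2% ± 0.529 of the summed ligand transcripts, which fell from 132.6 ± 3.25 to 96.9 ± 0.73 TPM. The summed level of 5 neuroendocrine markers (NEUROD1, INSM1, CHGA, SYP and NCAM1) was also lower, at 349 to 355 against 485 to 496 in controls, with all 5 at 1 or more in all libraries of both groups, and its part in the fall of DLL3 was not tested.

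JAG2 in H82 moved at a low level, from 0.687, 1.3 and 1.41 to 0.515, 0.3 and 0.445. The groups did not overlap, and the mean was 2.7-fold lower (-0.57 on the log2 scale, SE 0.119, adjusted p = 0.002515). Over the alternatives that tested JAG2 the log2 fold change ran from -1.21 to -0.18. JAG2 passed the filter only through H211 libraries, so a fit of the H82 groups alone did not test it. The treated value was 0.862% of the level in H211 controls, with 48 of 3194 genes abundant in H211 at a lower share.

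NOTCH1 and NOTCH2, the receptors that passed the filter on low values, were not called in H82. NOTCH2 stood at 12.2, 10.7 and 11.6 TPM without the drug and at 10.7, 12.4 and 12.8 with it, overlapping, with a log2 fold change of 0.05 (95% interval -0.18 to 0.28, adjusted p = 0.7425). NOTCH1 held 1.63, 1.46 and 1.89 in the controls and 0.948, 1.53 and 1.33 in the treated libraries, also overlapping, with a log2 fold change of -0.24 (95% interval -0.53 to 0.06, adjusted p = 0.1932). JAG1 had adjusted p = 0.681 and DLL4 0.1917, with log2 fold changes of -0.07 and -0.19. In all, 3 of 7 tested members changed in H82, 1 higher and 2 lower, where 43.0% of all genes tested changed, 19.1% higher and 23.9% lower. The members' share is near that background. The groups did not overlap for 4 of the 7, DLL4 being the fourth, beside 52.3% of all genes. In a fit of the H82 groups alone, 4 members were tested and 2 called, 1 higher and 1 lower.

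**Figure D3:**
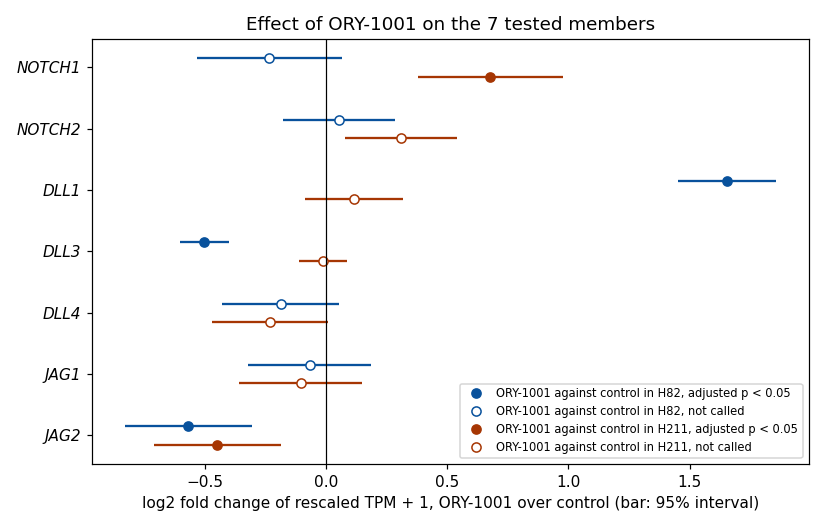
Log2 fold change of rescaled TPM + 1 with ORY-1001 (horizontal axis, bars are 95% intervals) for the 7 tested members in H82 (blue) and H211 (brown); filled points passed an adjusted p of 0.05. DLL1 rises and DLL3 falls in H82, NOTCH1 rises in H211, and JAG2 lies below 0 in both lines.

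H211 gained NOTCH1 transcript with ORY-1001 and lost JAG2 transcript, while its DLL1 and DLL3 levels overlapped between the groups. NOTCH1 stood at 2.07, 2.11 and 1.37 TPM without the drug and at 3.26, 3.92 and 3.41 with it. All treated libraries were above all controls, and the mean went from 1.85 ± 0.416 to 3.53 ± 0.349, 1.91-fold higher (0.68 on the log2 scale, SE 0.136, adjusted p = 0.005632). Without the 4 libraries left out for blood transcripts, which leaves a lone H211 control assumed to vary like the other groups, the value was 0.95 and the call was lost (adjusted p = 0.05429). Of 6 fibroblast and pericyte markers, 2 were at 1 or more in all libraries of both H211 groups. Their summed level was 65.6 to 73.2 in treated H211 against 9.16 to 10.3 in controls. Most of the treated sum was DCN (decorin), whose mean went from 4.10 to 63.9. The means of RGS5 (3.39 to 1.91) and PDGFRB (0.231 to 0.0596) were lower with the drug. Those of LUM and the collagen genes COL1A1 and COL1A2 were higher, at 1.27 or less in every H211 library. The part of such cells in the rise of NOTCH1 was not tested.

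JAG2 in H211 stood at 50.5, 48.7 and 46.8 TPM without the drug and at 36.0, 36 and 34.2 with it. The groups were far apart relative to their spread, at 48.7 ± 1.85 and 35.4 ± 1.05, 1.38-fold lower with ORY-1001 (-0.45 on the log2 scale, SE 0.119, adjusted p = 0.02312). The SE is shared with H82, where the low values of JAG2 vary more, and in a fit of the H211 libraries alone the adjusted p was 0.001092. In the fit of all groups the call was lost with a pseudocount of 0.1 (adjusted p = 0.1968), without the 4 libraries (-0.37, adjusted p = 0.4252), and when any of 5 H211 libraries was left out (controls 1 and 2, treated 1, 2 and 3). With these 5 omissions the adjusted p was 0.07886, 0.06696, 0.05827, 0.05333 and 0.07246, and the log2 fold change ran from -0.46 to -0.42.

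NOTCH2 in H211 stood at 4.52, 4.15 and 3.32 without the drug and at 5.43, 5.45 and 4.61 with it, without overlap, a log2 fold change of 0.31 that was not called (95% interval 0.07 to 0.54, adjusted p = 0.06623). With quantile normalization it passed (0.34, adjusted p = 0.03862). DLL1 held 62.4, 55.1 and 59.4 in the controls and 64.0, 59.6 and 68.4 in the treated libraries (log2 fold change 0.12, 95% interval -0.09 to 0.32, adjusted p = 0.4394). DLL3 held 20.5, 22.2 and 21.1 in the controls and 20.2, 20.7 and 22.2 in the treated libraries (log2 fold change -0.01, 95% interval -0.11 to 0.09, adjusted p = 0.8765). JAG1 and DLL4 had log2 fold changes of -0.11 and -0.23 (adjusted p = 0.5828 and 0.1748). In all, 2 of 7 tested members changed in H211, 1 in each direction, where 18.6% of all genes tested changed, 8.95% higher and 9.61% lower. The groups did not overlap for 3 of the 7, NOTCH2 being the third, beside 35.4% of all genes. The count of 2 changed members fell to 1 when any of the 5 libraries named for JAG2 was left out.

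The response to ORY-1001 differed between the lines for 3 of 7 tested members, where 32.1% of all genes tested differed. The difference was above 0 for 2 of them (17.8% of all genes) and below 0 for 1 (14.3%). DLL1 rose in H82 with a log2 fold change of 1.65 and had 0.12 in H211, a difference (H211 minus H82) of -1.54 (SE 0.13, adjusted p = 1.1e-05). DLL3 fell in H82 and had -0.01 in H211, a difference of 0.49 (SE 0.064, adjusted p = 2.073e-04). NOTCH1 rose in H211 and had -0.24 in H82, a difference of 0.91 (SE 0.193, adjusted p = 0.00415). JAG2 fell in each line and its responses were not called different, at 0.12 (95% interval -0.25 to 0.49, adjusted p = 0.6279). With a pseudocount of 5 the difference turned to -0.24 and passed (adjusted p = 0.03078), but over the alternatives it ran up to 0.75. By group means JAG2 was 2.7-fold lower in H82, at low levels, and 1.38-fold lower in H211. NOTCH2 had a difference of 0.26 (adjusted p = 0.222), which reached 0.57 (adjusted p = 0.04851) without the 4 libraries left out for blood transcripts.

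Under ORY-1001 the lines remained apart in ligand transcripts. DLL1 was 13.8-fold and JAG2 84.2-fold higher in treated H211 than in treated H82, and DLL3 was 4.34-fold higher in treated H82 (adjusted p = 1.44e-11, 1.195e-11 and 4.217e-12). NOTCH1, which overlapped between the control cultures, was 2.78-fold higher in treated H211 (log2 difference 1.00, SE 0.136, adjusted p = 2.755e-05). The order of levels changed in that DLL1 moved ahead of NOTCH1 in treated H82, while in treated H211 DLL1, JAG2, DLL3, NOTCH2 and NOTCH1 followed each other without overlap. All 7 tested members differed between the treated lines and had no overlap, where 80.2% of all genes tested differed and 81.0% had no overlap. Of the 7, 5 were higher in H211 (39.7% of all genes) and 2 lower (40.6%). DLL4, JAG1 and JAG2 were under 1 TPM in every treated H82 library and were tested only because H211 libraries passed the filter, which in part set their difference. Summed receptor transcripts came to 14.1 ± 1.27 in treated H82 and 9.64 ± 0.362 in treated H211, against 13.6 ± 0.838 and 6.75 ± 0.652 in the controls.

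NOTCH3, NOTCH4 and DLK1 were below 1 TPM in every library. NOTCH3, a receptor of vascular smooth muscle, held 0.113, 0.123 and 0.413 in H82 controls and 0.685, 0.465 and 0.755 in treated H82, without overlap. In a fit with no filter on low values it had adjusted p = 0.1534 in that comparison. Its H211 values overlapped, at 0.0906, 0.538 and 0.5 in controls and 0.787, 0.142 and 0.563 with ORY-1001. NOTCH4, a receptor of endothelium that lies in the MHC region of chromosome 6 (32194843 to 32224067), ranged from 0.165 to 0.807 over all libraries. Its annotation overlaps that of GPSM3 on the same strand, so reads of the shared stretch could belong to either gene. DLK1, a Delta-like protein without the receptor-binding domain of the classical ligands, ranged from 0 to 0.358. In the same fit with no filter it was higher in H211 controls (0.151, 0.358 and 0.233) than in H82 controls (0.0876, 0.0236 and 0.00887), with a log2 difference of 0.26 (adjusted p = 0.01558), at levels where the depth is unknown. Of its imprinted neighbourhood, MEG3 was at most 0.221, MEG8 at most 0.17 and RTL1 at most 0.0102, while MEG9, DIO3 and DIO3OS were listed at 0 in every library.

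NOTCH2 shares near-identical sequence with NOTCH2NL, a human partial copy of its first exons, and how reads were divided between them is not known, so the level of each is uncertain. NOTCH2NL was at 18.9, 16.8 and 19.6 in H82 controls and 25.8, 24.9 and 25.0 with ORY-1001, and rose 1.37-fold (adjusted p = 4.835e-04). It also rose in H211, 1.29-fold, from 4.4, 3.84 and 4.02 to 5.24, 5.07 and 5.52 (adjusted p = 0.01201). NOTCH2P1 was listed at 0 in every library. DLL1 overlaps FAM120B on the opposite strand of the annotation, and without stated strand-specific counting reads from the shared stretch cannot be told apart. FAM120B averaged 8.87 in H82 controls and 7.68 with ORY-1001, where DLL1 went from 0.798 to 4.65.

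The other genes of the pathway were taken as 6 lists of 59 symbols, of which 52 were tested. In H82, 8 of the 52 rose and 20 fell, 53.85% together. Of all genes tested 43.0% were called, 19.1% higher and 23.9% lower. The median log2 fold change was -0.15 against -0.016 over all genes. In H211, 6 of the 52 rose and 5 fell, 21.15% together, where 18.6% of all genes were called, 8.95% higher and 9.61% lower. The median there was -0.043 against -0.0021. The count of rises in H82 rested on single libraries: it was 5 without control replicate 2, 4 without control replicate 3, 4 without treated replicate 1, 3 without treated replicate 2 and 4 without treated replicate 3, with 16 to 20 falls. It was 4, with 21 falls, in a fit of the H82 groups alone, and 3, with 17 falls, without the 4 libraries left out for blood transcripts. In H211, 4 rose and 3 fell without H211 ORY-1001 replicate 1, and 2 rose and 3 fell without the 4 libraries. With totals made equal 5 rose and 7 fell in H211, with totals without mitochondrial genes 5 rose and 10 fell, and among genes at 5 TPM or more 5 rose and 8 fell.

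Among enzymes that cleave the receptor, 2 of 9 rose and 4 fell in H82, and 1 rose and 2 fell in H211. The called share was 66.7% in H82 and 33.3% in H211, beside 43.0% and 18.6% of all genes tested. APH1B, a γ-secretase subunit, was 1.45-fold lower in H82 and ADAM17, a metalloprotease, 1.3-fold lower (adjusted p = 0.006652 and 0.01439). FURIN, the protease that matures Notch precursors, fell 1.9-fold in H211, from 46.0, 46.7 and 44.7 to 25.0, 24.9 and 22.6 (adjusted p = 3.96e-05).

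Glycosyltransferases that modify the receptor changed in H82, with 2 of 6 higher and 2 lower (66.7% called, beside 43.0% of all genes tested). In H211 limma called 0 of 6, beside 18.6% of all genes, with 1 (LFNG) at an unadjusted p under 0.05. LFNG, a Fringe enzyme that alters which ligands a receptor answers to, rose 1.78-fold in H82, from 12.7, 12.4 and 12.8 to 21.7, 22.3 and 23.5 (adjusted p = 8.086e-06). In H211 it was at 8.18, 9.68 and 9.01 in controls and 7.32, 7.05 and 8.2 with ORY-1001 (adjusted p = 0.05177). POGLUT1, which adds O-glucose to the receptor, was 1.31-fold lower in H82 (adjusted p = 0.006246).

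Among genes of ligand endocytosis and receptor turnover, 1 of 13 rose and 6 fell in H82, and 1 rose and 1 fell in H211. These are 53.9% and 15.4% called, beside 43.0% and 18.6% of all genes tested. MIB1, the ubiquitin ligase that makes ligands competent to signal, was at 14.5, 14.6 and 14.6 in H82 controls and 8.31, 8.89 and 9.57 with ORY-1001, 1.63-fold lower (adjusted p = 1.63e-05). ITCH, a ubiquitin ligase of Notch, fell in both lines, 1.3-fold in H82 and 1.14-fold in H211 (adjusted p = 6.319e-05 and 0.01541). DTX3L, a Deltex-family protein that is also an interferon-induced gene, rose 2.71-fold in H211, from 2.85, 3.0 and 2.4 to 7.0, 8.22 and 7.13 (adjusted p = 9.212e-06).

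In the nuclear complex and its corepressors 6 of 13 were called in H82 and 2 in H211, each of them lower. Their called shares were 46.2% in H82 and 15.4% in H211. Of all genes tested, 23.9% and 9.61% were lower, and 43.0% and 18.6% were called in either direction. KAT2B, an acetyltransferase coactivator, fell in both lines, 1.96-fold in H82 from 6.08, 6.16 and 6.04 to 3.46, 2.86 and 2.99, and 1.61-fold in H211 from 34.7, 35.2 and 33.9 to 21.8, 20.6 and 22.0 (adjusted p = 2.895e-06 and 3.115e-05). CTBP1, a corepressor, was 1.43-fold lower in H82 (adjusted p = 7.976e-05) and HDAC1, a histone deacetylase, 1.2-fold lower in H211 (adjusted p = 1.909e-04). RBPJ, the DNA-binding subunit, was at 19.6, 23.1 and 22.0 in H82 controls and 18.5, 22.1 and 19.1 with ORY-1001.

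Of the Notch target genes, 3 of 6 were called in each line, each of them higher, and 1 further listed gene, HES5, was too low to test. That share, 50% in each line, stands beside 19.1% of all genes tested that were higher in H82 and 8.95% in H211. In either direction 43.0% and 18.6% of all genes were called. HEY1 and HES4, bHLH repressors of the HES and HEY family, rose 2.5-fold and 1.96-fold in H211 (adjusted p = 2.583e-06 and 0.001654), HEY1 from 3.26, 3.27 and 3.6 to 8.46, 8.22 and 8.6, with HES1 as the third, 2.45-fold from below 1 TPM (adjusted p = 0.005133). In H82, NRARP, a feedback inhibitor of Notch, rose 1.32-fold, from 6.18, 7.23 and 7.2 to 8.65, 9.75 and 8.85 (adjusted p = 0.01764), HEY1 1.24-fold (0.02531) and HEY2 1.25-fold (0.03333). These targets are among the 8 rises in H82 and 6 in H211 of the 52 pathway genes. Those counts fell when some libraries were left out, and whether the target calls held was not followed gene by gene. Of 5 non-canonical ligands, the 2 called in H82 were lower (40%, beside 23.9% of all genes lower and 43.0% called). The 1 called in H211 was higher (20%, beside 8.95% of all genes higher and 18.6% called). MFAP2, a microfibril protein reported to bind Notch, fell 5.49-fold in H82, from 40.4, 36.7 and 37.5 to 7.46, 6.25 and 7.16 (adjusted p = 8.945e-10). DLK2, the paralogue of DLK1, fell 2-fold in H82, from 1.75, 2.15 and 2.41 to 1.14, 1.03 and 0.983 (adjusted p = 0.001041), and rose 2.21-fold in H211, from 3.18, 2.71 and 3.14 to 5.81, 7.16 and 6.96 (adjusted p = 1.509e-04).

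**Figure D4:**
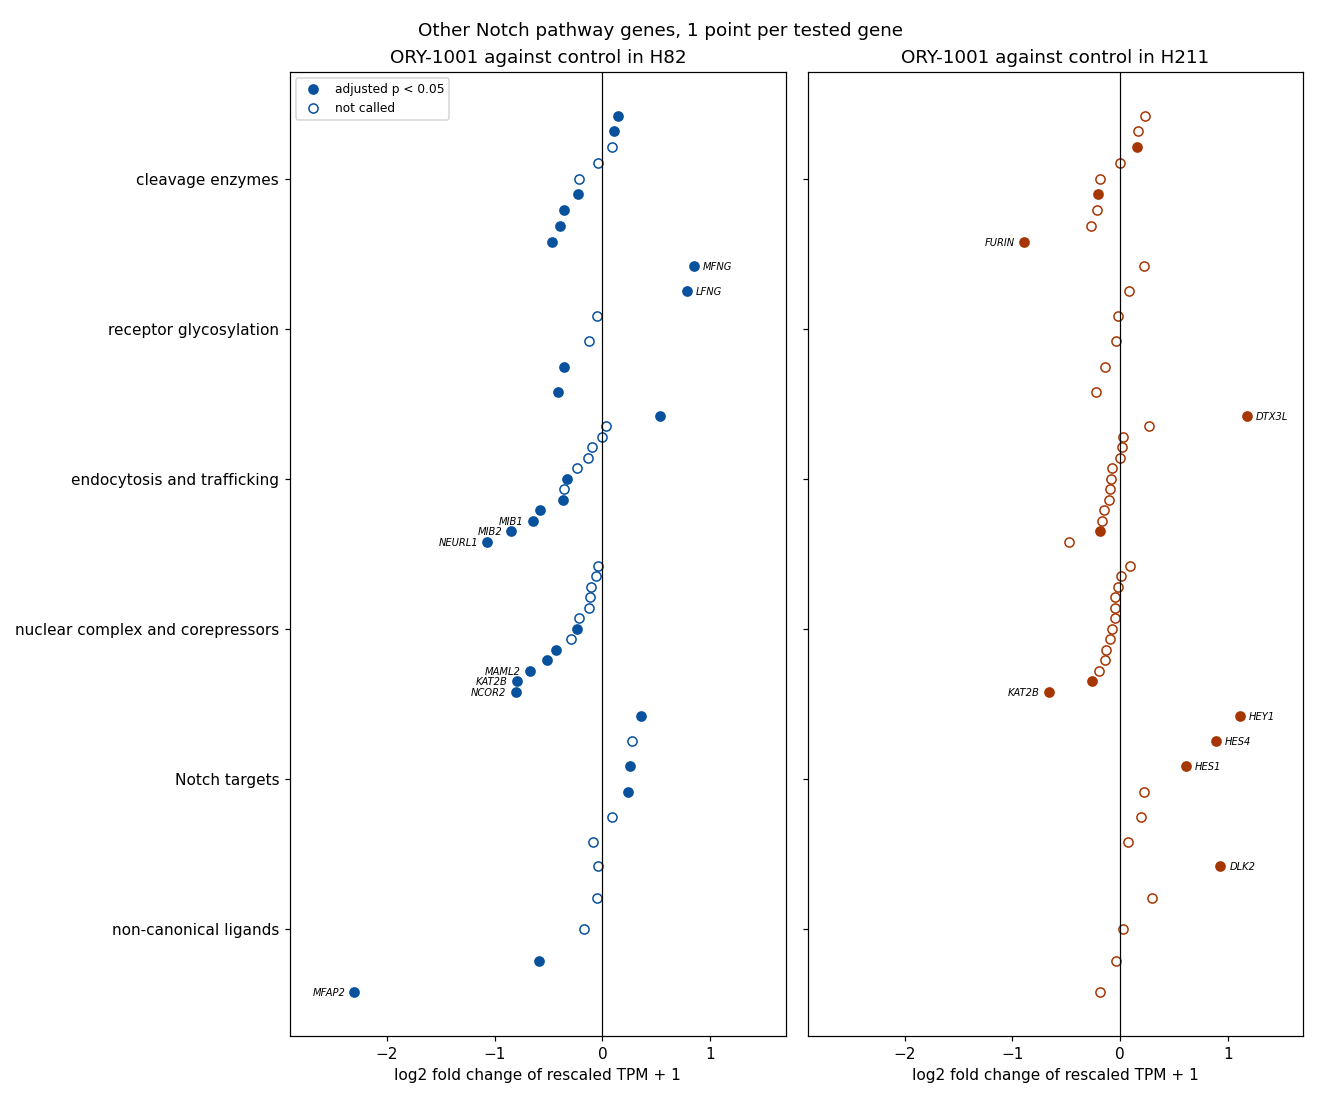
Log2 fold change of rescaled TPM + 1 with ORY-1001 (horizontal axes) for the 52 tested pathway genes outside the receptors and ligands, in H82 (left) and H211 (right), by list; filled points passed an adjusted p of 0.05 and those beyond 0.6 either way are named. Notch targets lie mostly right of 0 in both lines, and MFAP2 in H82 is the farthest left.

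Over the 12 libraries the levels of DLL3, DLL1, JAG2 and NOTCH2, the members with a mean of at least 5 TPM in a group, were each compared with 11347 other genes on the log2 scale. SYN2, ST6GAL1 and HR followed DLL3 most closely (r = 0.9992, 0.9988 and 0.9985). RPRM, GTF3C6 and ARFRP1 followed DLL1 (r = 0.9981, 0.998 and 0.9979), RICTOR, SDC1 and USP46 followed JAG2 (0.9994, 0.9987 and 0.9985), and RABL6, POLR2J3 and NAT8L followed NOTCH2 (0.9922, 0.9905 and 0.9893). All 12 points share the split between the lines, which sets most of these values.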

How the data were processed

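The authors deposited a table of TPM-like signal for 56508 gene symbols in 12 libraries, each with a sample, and 0 columns were without one. Column totals differ between libraries (967400 to 1112000), where plain TPM would not, so the deposited signal appears to have been rescaled between libraries. The submitters' processing notes name Salmon 1.1.0, sleuth 0.30.0, R 4.0.4, STAR 2.5.2b, Trimmomatic 0.36, DESeq2 and featureCounts (Subread 1.5.2), and the hg38 build. Their roles and order are not given in the sources. Per the labels' protocols, libraries were made from oligo(dT)-enriched mRNA and read as pairs. Read counts were not analysed here, so no counting error can be given. Tests planned for plain TPM were applied to these rescaled values.

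The analysis used log2(TPM + 1), a scale that understates fold changes of low genes; folds beside means are ratios of group means. Genes at 1 TPM or more in at least 3 libraries (15456) entered a single limma 3.58.1 fit in R 4.3.3 with 4 group means and a variance trend. P-values are two-sided, Benjamini-Hochberg adjusted over all genes tested, and called under 0.05. With 3 libraries against 3 an exact permutation test cannot go below 0.1, so none is given for single genes. The fit was tested on simulated data.

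The members and gene lists were chosen with earlier results of these data known. All 10 members are named, and from each of the 6 pathway lists up to 2 called genes per line by smallest p with a group mean of at least 5 TPM. HES1, HEY2, MEG genes, NOTCH2 copies and subtype factors were named by further parts of the rule, as were genes next to called members, while some results of the rule are not reported here and COL1A1, COL1A2, DCN, RBPJ, FAM120B, GPSM3 and the H211 values of LFNG were added after their values were seen. Genes most like a member are the 3 with the highest Pearson r. Coordinates are from GENCODE release 29 (GRCh38) and promoters from RefSeq (GRCh38.p14). Alternatives changed the pseudocount, filter, scaling, variance model, library weights, groups fitted, replicate block and libraries.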

Additional observations from a re-analysis of the deposited data

Results flagged for a closer look

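The response to ORY-1001 differed between the lines, by the interaction term of the limma fit, for 15 of the 27 members, NOTCH2NL and named pathway genes that were tested. The differences below are log2 fold change in H211 minus that in H82, and most of the pathway genes among the 27 were chosen for passing the test in 1 line, so their count is not read against all genes. Of all 52 pathway genes tested, 14 had a difference above 0 and 6 below 0 (38.5% together), beside 32.1% of all genes. Among ligands and receptors it was 0.91 for NOTCH1, -1.54 for DLL1 and 0.49 for DLL3.

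Genes that process the receptor or the ligand differed as well. The difference was 0.699 for APH1B (adjusted p = 0.007459), -0.68 for FURIN (0.001772), -1.01 for LFNG (3.853e-05), 0.48 for MIB1 (0.002677), 0.18 for ITCH (0.046) and 1.14 for DTX3L (9.852e-05). LFNG was higher with ORY-1001 in H82 and had a negative value in H211.

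In the nucleus, CTBP1 differed by 0.499 (adjusted p = 0.001929) and HDAC1 by -0.22 (0.00337). Of the targets, HEY1 differed by 0.87 (adjusted p = 1.431e-04) and HES4 by 0.97 (0.004307). The non-canonical ligands MFAP2 and DLK2 differed by 2.11 (4.969e-08) and 1.52 (3.614e-05), and DLK2 passed the test in opposite directions in the 2 lines.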

How the results depend on the processing

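The member results (35 pairs of gene and comparison) were recomputed under 26 alternatives, and 868 of 879 values kept their direction, where called, and their side of the threshold, including all of those for DLL1 and DLL3. The difference of the JAG2 responses between the lines turned to -0.24 with a pseudocount of 5, and ran up to 0.75 over the alternatives. The count of 2 members changed in H211 fell to 1 with a pseudocount of 0.1, to 1 among genes at 5 TPM or more in 3 libraries, where NOTCH1 was not tested, and to 0 without the 4 libraries left out for blood transcripts. It ran from 1 to 2 when single libraries were left out. The count of members that differ between the treated lines fell from 7 to 4 among genes at 5 TPM or more, because 4 were tested. The count of 11 pathway genes changed in H211 ran from 7 to 13 with single libraries left out and was 5 without the 4 libraries. For the other changes the cause was not tested. With column totals made equal, 35.0% of called genes in H211 were higher, and 32.6% with totals without mitochondrial genes, against 48.2% in the main fit. The latter totals moved the median log2 difference between the control cultures to 0.14 and between the treated ones to 0.1. Same-numbered libraries of a line correlated at -0.0805 to 0.0449 in their deviations from the group means. Differently numbered ones correlated at -0.0366 to 0.0655, so no pairing by number was visible. With 3 libraries per group this cannot exclude that a number marks a shared culture or day, which the labels do not state. With the replicate number as a block, the counts of members were 3 in H82, 2 in H211, 3 for the difference, 6 for controls and 7 for treated lines, and those of pathway genes 26 in H82 and 11 in H211. Read depth is unknown, which limits every value below 1 TPM.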

Other observations

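Genes next to some of the members changed with ORY-1001 where the member was not called, and others did not change. Of all genes tested, 43.0% changed in H82 and 18.6% in H211. Among neighbours not detailed below, SEC22B and CDCA4 were called in H82 and BTBD3 in both lines. VPS18, SLX4IP, EID2B, LINC00242 and EGFL7 were called in neither line. CHAC1, a glutathione-degrading enzyme also described as an inhibitor of Notch maturation and lying 13889 bases beyond DLL4 on chromosome 15, averaged 11.3 TPM in untreated H82 and 1.43 in treated H82, and 5.62 and 2.92 in H211 (limma adjusted p = 1.326e-06 and 0.007126), while DLL4 had adjusted p = 0.1917 and 0.1748. PHGDH, the first enzyme of serine synthesis and the nearest tested gene before NOTCH2 on chromosome 1 (167327 bases away), averaged 896.8 in untreated H82 and 255.9 in treated H82 (adjusted p = 1.021e-06). NUDT14, 4114 bases beyond JAG2 on chromosome 14, fell with ORY-1001 in H82 from 24.0 to 14.9 (adjusted p = 1.871e-04) and averaged 42.5 and 50.8 in H211 (adjusted p = 0.08225), where JAG2 fell in both lines. TIMM50, 5110 bases before DLL3 on chromosome 19, averaged 526.9 and 528.1 in H82 (adjusted p = 0.9686), where DLL3 fell, and rose in H211 from 282.5 to 329.1 (adjusted p = 0.006762). The nearest tested gene beyond DLL1, the proteasome gene PSMB1 at 228552 bases, rose in H82 with a log2 fold change of 0.27 (adjusted p = 0.007491), beside 1.65 for DLL1. SEC16A, 10674 bases before NOTCH1 on chromosome 9, had a log2 fold change of 0.02 in H211 (adjusted p = 0.9327).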
